A study of Mus musculus with 16 samples.

Results

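Ribosome biogenesis factors are the nucleolar and nuclear proteins that process ribosomal RNA and assemble it with ribosomal proteins. The 54 genes described here were chosen by name, as array probes whose gene symbol, or older alias (Mki67ip for Nifk), matches a fixed list. All 54 had at least 1 probe, of 22328 genes with a probe on the array. The brightest probe stands for each gene, and the other probes of 19 genes serve as a check. Mouse T lymphocytes from lymph node were compared, all OT-1 heterozygous (carrying the OT-1 receptor transgene, which recognises SIINFEKL of ovalbumin) and Rag-/-. One group was otherwise WT and the other Lck-/-, that is, without Lck, the Src-family kinase that starts T cell receptor signalling. The series' title adds the word OFF to the Lck-/- group, and what it stands for is not given in the sources used here. Both groups were cultured with 100 nM SIINFEKL for 24 h and with cycloheximide, which holds ribosomes on mRNA, at 100 µg/ml for the last 10 min. Postnuclear lysates were separated on sucrose gradients of 10 to 50%, and fractions 1 to 5 were pooled as sub-polysomal and 6 to 10 as polysomal RNA. Each of 4 extracts a genotype was hybridised on 2 2-colour arrays with the dyes swapped. The labels do not say whether the extracts came from separate animals, so p-values measure the spread between these samples, which may be technical.

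Ribosome assembly starts in the nucleolus, where small nucleolar ribonucleoproteins (snoRNPs) and the small subunit processome fold, modify and cut the long precursor RNA. Separate sets of factors then mature the small and the large subunit, and export adaptors carry them to the cytoplasm. T cells enlarge the nucleolus and raise ribosome production after antigen contact, as they prepare to divide, and Myc is a known activator of many genes of this pathway.

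An array probe reads 1 short stretch of an mRNA, so the probes of members on which results below turn are shown first, 5′ to 3′ and in lower case. Ncl, by this probe, had the highest share on polysomes, Nop14 the largest fall in level, Wdr75 rose, Mdn1 had the highest mean difference in level, and Nop16 fell in polysome share. Positions are on mouse build mm9, as the scanner files give them. No annotation of that build was used here, so exon and UTR status are not stated. The probes of Nop14, Mdn1 and Wdr75 span more genome than their own length, that is, each crosses an exon junction.
Ncl (chr1:88247953-88248012, minus strand): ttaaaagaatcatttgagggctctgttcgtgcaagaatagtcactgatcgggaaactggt
Nop14 (chr5:34986699-34987391, minus strand): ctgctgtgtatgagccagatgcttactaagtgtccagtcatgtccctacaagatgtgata
Mdn1 (chr4:32771673-32772651, plus strand): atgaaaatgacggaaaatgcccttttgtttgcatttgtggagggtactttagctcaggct
Wdr75 (chr1:45879813-45880205, plus strand): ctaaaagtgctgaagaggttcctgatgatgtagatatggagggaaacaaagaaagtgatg
Nop16 (chr13:54686644-54686703, minus strand): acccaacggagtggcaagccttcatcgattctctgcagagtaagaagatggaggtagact

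The Utp6 probe (chr11:79747473-79747532, minus strand) needs a separate statement. It holds the stretch ttctggtgtgtctgaa, 16 bases from its base 11, which is also in 11 probes of the array. In all, 17 probes of other gene names share at least 16 bases with it. The 16 of these with signal had a median log2 ratio of polysomal to sub-polysomal RNA of -3.19 in WT and -1.07 in Lck-/-, and the Utp6 probe itself had -3.26 and -1.07. For a different Utp6 probe, 0 of 16 arrays had signal well above background in both channels. The Utp6 values below are therefore those of this probe and need not be those of Utp6 mRNA.

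Signal and labels were checked over the whole series. Probes with signal well above background numbered 14619 to 50776 per array for polysomal RNA and 12531 to 30976 for sub-polysomal RNA, with 0 saturated spots. The highest polysomal number was that of 1 array, Lck-/- extract 1 with polysomal RNA in Cy5, and the next was 26643. The level of Lck (mean of both channels, log2) was 15.08, 15.17, 14.72 and 15.17 in WT and 14.16, 14.36, 14.03 and 14.16 in Lck-/- extracts, a difference of -0.85 (SE 0.14, limma adjusted p = 0.00301). Signal thus remained in Lck-/-, and where the probe lies relative to the deleted part is not given in the sources used here. All 9 T cell markers with a probe were well above background on at least 12 of 16 arrays. So were 1 of 8 B cell, 1 of 9 macrophage, 1 of 7 dendritic cell, 1 of 5 NK cell, 0 of 8 stromal and 1 of 3 erythroid markers. The summed level of the NK list, of which Eomes alone was above background, was 10.02 to 10.58 in WT and 11.03 to 12.39 in Lck-/-. That of the erythroid list, of which Hba-a1 alone was, was 8.31 to 8.73 and 8.58 to 10.53. Each of these sums rests on 1 gene above background and need not mark its cell type. The ranges of the genotypes were apart for the NK list and overlapped for the erythroid list. Neither difference was tested, nor was the part of these lists in the results below. The dye-swapped arrays of WT extracts 1 and 2 went against their labels: their deviations in the ratio correlated at -0.83 and -0.81 with the array of the same label and at 0.87 and 0.94 with the other's, over all tested genes. In the other 6 extracts the correlation with the labelled partner was 0.46 to 0.84. Each result is therefore given as labelled and, where the call changes, with these 2 arrays crossed. Crossing changes the spread and leaves the WT mean of a gene as it is where all arrays of both extracts have a value, which among the members fails for Nifk alone. The values printed for WT extracts 1 and 2 are those as labelled. All statements on overlap between the groups rest on these values too, and overlap was not counted with crossing.

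The first question is whether the mRNAs of ribosome biogenesis factors differed in amount between WT and Lck-/- cells. Level here means the log2 intensity of a gene's probe relative to the other genes on the array, taken as the mean of the polysomal and sub-polysomal channels. Of 52 members tested 13 were higher and 3 lower in Lck-/- (limma, Benjamini-Hochberg adjusted p below 0.05). That is 25% and 5.77% of members, where 9.34% of 9073 genes tested rose and 11.3% fell. Mdn1 is among the 13 and passed the filter on signal through Lck-/- alone. Of the 51 members that passed it in both genotypes 12 rose and 3 fell. The median difference of the members was 0.36 (log2), against 0.04 over all genes, and 40 of 52 differences were positive. With arrays as labelled, every Lck-/- extract lay above every WT extract in 20 members, Mdn1 among them, and below in 2, against 12.8% and 13.1% of all genes. Risers included Fbl, the ribose methyltransferase of the box C/D snoRNP, and Nifk, Grwd1 and Bysl, assembly factors of the large and small subunits. Nop14 of the small subunit processome, the nucleolar GTPase Gnl3 (nucleostemin) and the export adaptor Nmd3 fell. Fewer cells making an mRNA and less of it in each cell cannot be told apart in such bulk RNA.

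Centring on the median or no normalization within arrays in place of loess gave the same counts (13 and 3 in both), since that step moves the channels apart and not their mean. Without scaling between arrays 5 rose and 1 fell, and of all 9073 genes 313 rose and 670 fell, against 847 and 1028 with it. With crossed dye swaps 12 rose and 2 fell, against 8.08% and 10.2% of all genes, and 14 of the 16 calls held. The arrays lay on 2 slides, each with 4 arrays a genotype. Slide 1 alone called 7 rises and 0 falls, with 23 of 52 members and 2719 of 9073 genes at unadjusted p below 0.05. Slide 2 alone called 6 and 1. Of all genes 275 rose and 565 fell on slide 1, and 482 and 670 on slide 2. The median difference of the members was 0.33 and 0.32 on the 2 slides. Both slides carry the same 8 extracts, so these medians do not come from separate samples. If the dye-swapped arrays of WT extracts 1 and 2 are exchanged, each slide holds 2 arrays of 1 of these extracts. The 4 WT arrays of a slide would then not be separate extracts. Leaving out 1 extract moved the total of 16 by over 1.5 times for Lck-/- replicate 3 (8 rises and 1 fall), Lck-/- replicate 4 (6 and 1) and WT replicate 2 (6 and 1). Of all genes 378, 301 and 400 then rose and 691, 664 and 709 fell, in the same order. With WT extracts 1 and 2 both left out 5 members rose and 1 fell, and of all genes 287 rose and 530 fell. The calls of Fbl, Nifk, Grwd1, Bysl and Nop14 held on leaving out any 1 of the 8 extracts, and that of Mdn1 is not read as support. The other 10 genes lost theirs without 1 extract, for between 2 (Wdr75) and 6 (Ltv1) of the 8 extracts, and these are named with each gene below. The Grwd1 call depends on the probe. A second, dimmer Grwd1 probe gave -0.64, and with both averaged the difference was -0.0165 (limma adjusted p = 0.934).

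**Figure D1:**
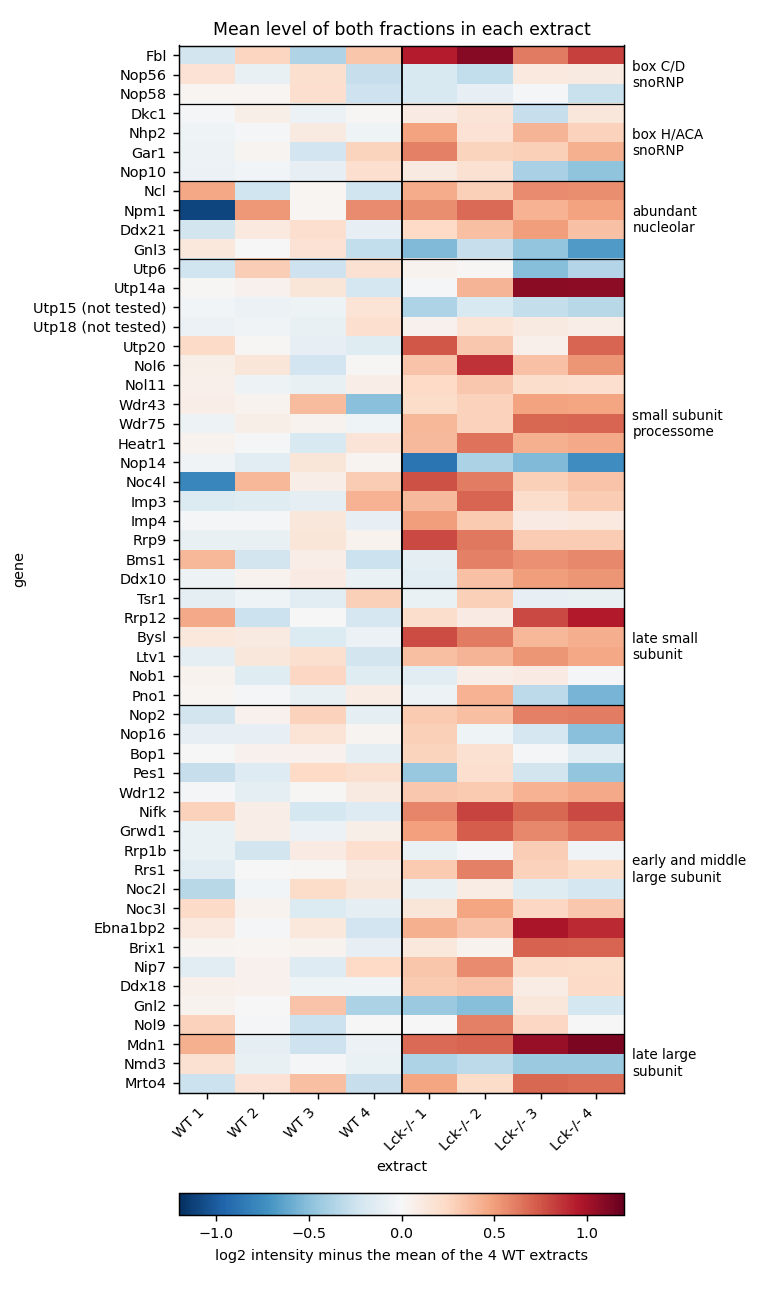
Level of each of the 54 genes (rows, ordered by role) in each of the 8 extracts (columns), as the mean of the polysomal and sub-polysomal log2 intensity minus the mean of the 4 WT extracts; red is higher and blue lower, and colours saturate at 1.2. The Lck-/- columns are mostly red, with Nop14, Gnl3 and Nmd3 blue in all 4, and the 2 genes not tested (Utp15, Utp18) failed the filter on signal.

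**Figure D2:**
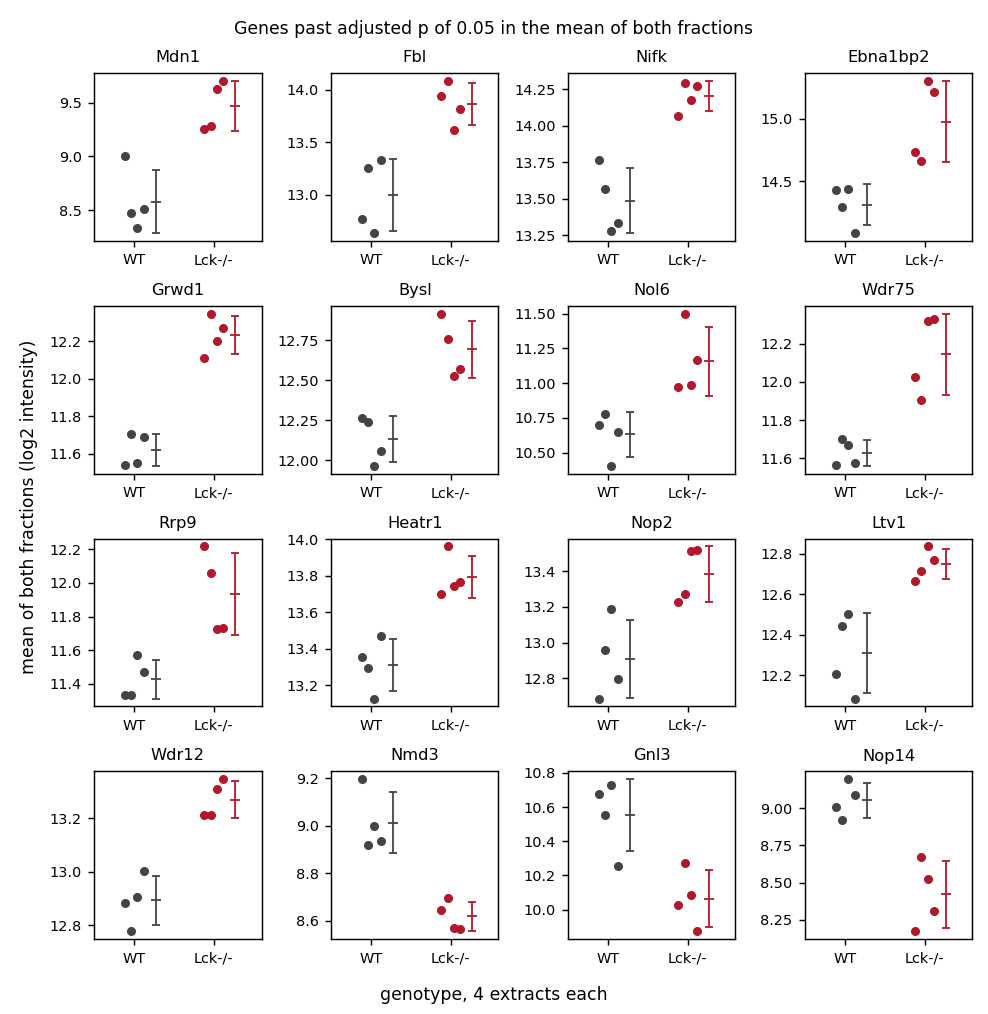
Level of the 16 genes past adjusted p of 0.05, as the mean of both fractions (log2 intensity), with 1 point per extract and the mean and SD (n = 4) beside them; each panel has its own axis, which does not start at 0. The groups do not overlap in 15 of the 16 panels, Gnl3 being the one where they do.

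Each fraction was also tested by itself. In the polysomal pool 7 of 53 members (13.2%) rose and 1 (1.89%) fell, against 5.60% and 9.37% of 10292 genes, but the direction depended on scaling: with arrays centred on the median 0 rose and 7 fell, and without normalization 0 and 11. In those settings, in the same order, 51 of the 10292 genes rose and 2180 fell, and 85 and 2890. The median of all genes moved to -0.31, and that of the members to -0.20, so members still lay above the typical gene. All 7 genes that rose kept a positive difference in both settings, and none of the 7 kept its call. The 7 include the Utp6 probe, which need not read Utp6 mRNA. With crossed dye swaps 2 rose on polysomes and 0 fell, against 1.95% and 4.82% of all genes. These 2 were Nifk and Grwd1, and a second, dimmer Grwd1 probe differed by -0.79 there. With crossing, 14 of 53 members and 2648 of 10292 genes were at unadjusted p below 0.05. In the sub-polysomal pool 15 of 52 (28.8%) rose and 3 (5.77%) fell, the Utp6 probe among the 3, against 8.54% and 10.8% of 9703 genes. Crossing gave 8 rises and 1 fall there, against 4.24% and 6.69% of all genes, while median centring gave 38 and 0 and no normalization 41 and 1, with the median of all genes at 0.36 and 0.37. Shares of all genes that rose there were 36.6% and 37.1%, and 3.4% and 3.52% fell. The median difference of the members was 0.29 in the polysomal and 0.38 in the sub-polysomal pool, where all genes had 0.00 and 0.05. Polysomal levels did not overlap for 10 members higher and 4 lower in Lck-/- (9.46% and 13.1% of all genes), and sub-polysomal levels for 22 and 3 (13.4% and 12.5%).

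Calls within a fraction differed between the slides. Slide 1 alone called 0 members in the polysomal pool (limma; 9 of 53 at unadjusted p below 0.05) and 18 rises and 3 falls in the sub-polysomal pool. On slide 2 alone 9 rose and 3 fell in the polysomal pool, and 0 were called in the sub-polysomal pool, with 18 of 52 at unadjusted p below 0.05. Calls over all genes differed alike. On slide 1 19 of 10292 genes rose and 72 fell in the polysomal pool, and 1161 and 1262 of 9703 in the sub-polysomal pool. Slide 2 gave 938 and 975, and 42 and 135. At unadjusted p below 0.05 were 1649 genes on slide 1 in the polysomal pool and 1918 on slide 2 in the sub-polysomal pool. The medians of the members were nevertheless close: 0.28 on both slides in the polysomal pool, and 0.34 and 0.33 in the sub-polysomal pool. The slides carry the same extracts, so these medians too do not come from separate samples. Polysomal totals were also moved by over 1.5 times without any of Lck-/- replicates 2 (3 rises and 1 fall), 3 (4 and 1) and 4 (2 and 1) and WT replicates 1 (3 and 1), 2 (3 and 1) and 3 (2 and 0), and by Lck-/- replicate 1 upwards (10 and 3). Sub-polysomal totals were moved so far without Lck-/- replicate 3 or Lck-/- replicate 4 (6 and 2 in both). In the order given, 493, 257, 154, 343, 204, 183 and 1291 of all genes rose on polysomes. Falls there were 994, 622, 563, 660, 555, 530 and 1163, against 576 rises and 964 falls with all extracts. Sub-polysomal counts of all genes were 353 and 645, and 390 and 664, against 829 and 1044.

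**Figure D3:**
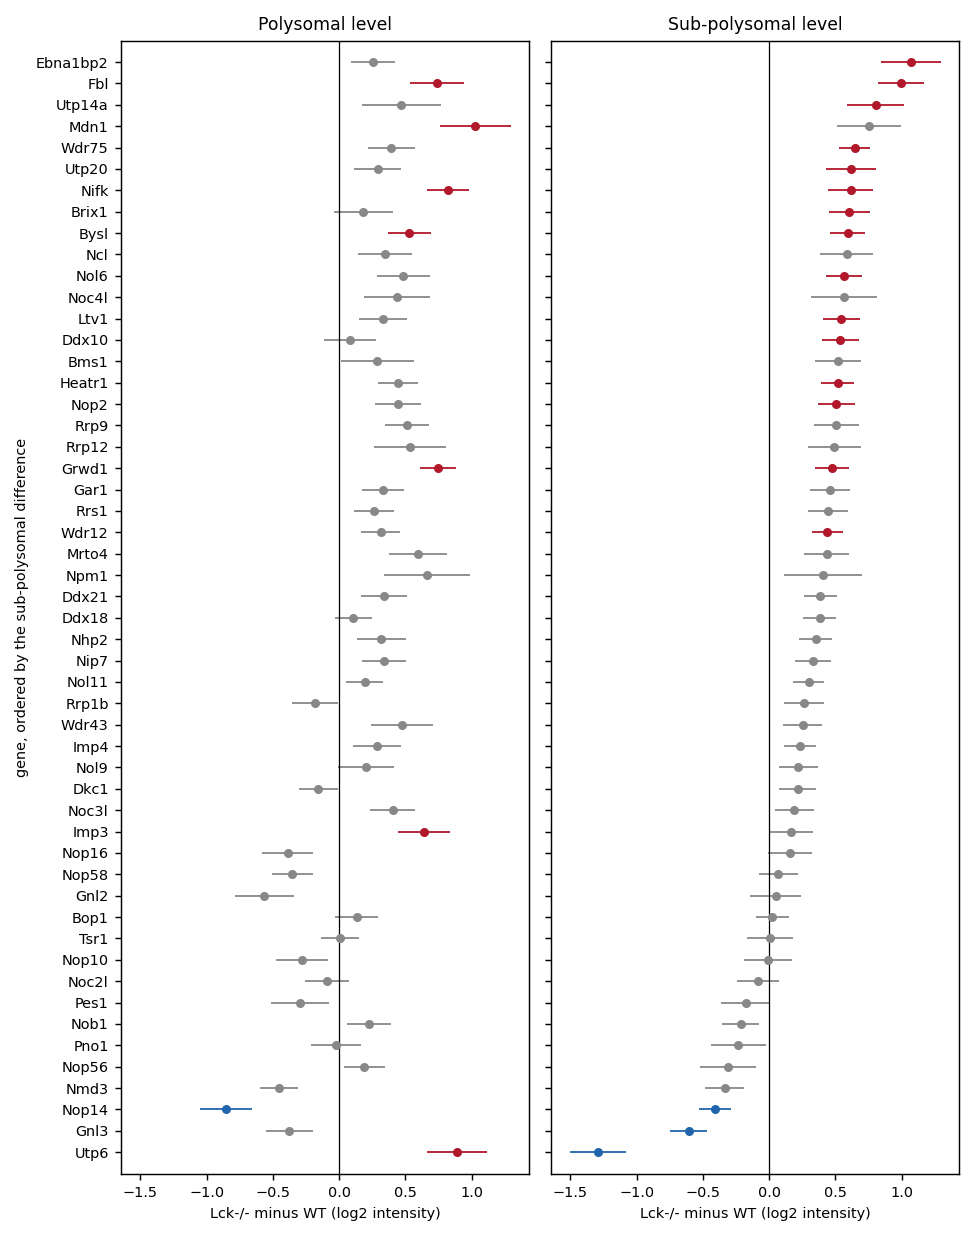
Difference between Lck-/- and WT (log2 intensity, with its SE) in the polysomal (left) and sub-polysomal pool (right) for the 52 genes tested in both, ordered by the sub-polysomal difference; red points rose and blue points fell at adjusted p below 0.05, and grey points did not pass. Most points lie right of 0 in both panels, and Utp6, read by a probe with a shared stretch, lies on opposite sides.

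Box C/D snoRNPs carry guide RNAs that direct ribose methylation of ribosomal RNA, and Fbl is their catalytic subunit. The Fbl level was 12.77, 13.25, 12.63 and 13.33 in WT extracts 1 to 4 and 13.94, 14.08, 13.62 and 13.82 in Lck-/- extracts 1 to 4. No WT extract reached the lowest Lck-/- extract, and Fbl rose by 0.87 (SE 0.18, limma adjusted p = 0.00846), that is 1.83-fold. Sub-polysomal Fbl was at 12.42, 12.91, 12.28 and 12.99 in WT extracts 1 to 4 and 13.66, 13.79, 13.50 and 13.63 in Lck-/- extracts 1 to 4. It rose there by 1.00 (SE 0.17, limma adjusted p = 0.00452), and the groups did not overlap. Its polysomal level was 13.12, 13.60, 12.99 and 13.67 in WT extracts 1 to 4 and 14.22, 14.38, 13.74 and 14.00 in Lck-/- extracts 1 to 4. That difference of 0.74 (SE 0.20, limma adjusted p = 0.0323) also had no overlap, but crossing the dye swaps ended its call (adjusted p = 0.0650). So did a fit without Lck-/- replicate 2 or 4 or WT replicate 1, 2 or 3 (adjusted p of up to 0.0943). In mean level Fbl was called in 23 of 23 alternatives (adjusted p of up to 0.0416). Median centring and no normalization leave a mean level as it is, and averaging probes does so for a gene with 1 probe. Counts of alternatives, here and below, include such settings, which could not move the difference. The other 2 members of this role, Nop56 and Nop58, core proteins that bridge the guide RNA and Fbl, had differences in mean level of -0.06 and -0.14 and were not called. Sub-polysomal Nop56 was at 15.98, 15.62, 16.18 and 15.32 in WT extracts 1 to 4 and 15.41, 15.08, 15.52 and 15.84 in Lck-/- extracts 1 to 4, groups that overlap, with a difference of -0.31 (adjusted p = 0.302).

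Box H/ACA snoRNPs convert uridine to pseudouridine, with Dkc1 as the enzyme and Nhp2, Gar1 and Nop10 as its partners. Of the 4 genes 0 were called in mean level, with 2 at unadjusted p below 0.05, as were 3325 of all 9073 genes tested. Nhp2 and Gar1 differed by 0.33 (adjusted p = 0.0660) and 0.40 (adjusted p = 0.0680), with no overlap between the groups in either. Dkc1 and Nop10 differed by 0.03 and -0.15.

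Among the abundant nucleolar proteins, 3 were higher in Lck-/- by their brightest probes without a call, and Gnl3 alone was called in mean level, as lower. Its level was 10.68, 10.55, 10.73 and 10.26 in WT extracts 1 to 4 and 10.03, 10.27, 10.08 and 9.87 in Lck-/- extracts 1 to 4. The groups overlapped, since Lck-/- extract 2 lay above WT extract 4, and Gnl3 fell by 0.49 (SE 0.14, limma adjusted p = 0.0340). It was called in 12 of 23 alternatives (adjusted p of up to 0.188) and was lost without Lck-/- replicate 3 or 4 or WT replicate 1, 2 or 3 (adjusted p of up to 0.0975). In the sub-polysomal pool its level was 10.704, 10.65, 10.81 and 10.45 in WT extracts 1 to 4 and 10.18, 10.21, 10.00 and 9.80 in Lck-/- extracts 1 to 4. All 4 Lck-/- extracts were lower there, with a fall of 0.61 (SE 0.14, limma adjusted p = 0.0140) that held on leaving out any 1 extract, and crossing the dye swaps ended it (adjusted p = 0.0554). The polysomal level of Gnl3 was 10.66, 10.46, 10.65 and 10.06 in WT extracts 1 to 4 and 9.87, 10.34, 10.16 and 9.94 in Lck-/- extracts 1 to 4, groups that overlap, with a difference of -0.38 (adjusted p = 0.174). The RNA-binding protein Ncl (nucleolin), the chaperone Npm1 (nucleophosmin) and the helicase Ddx21 differed in mean level by 0.46, 0.53 and 0.36, and none of these 3 passed the test (adjusted p = 0.0695, 0.226 and 0.0715). The Npm1 value depends on the probe, and its sign differs between probes, as described below. By the brightest probe, WT extract 1 was at 14.935 and the other WT extracts at 16.06 to 16.60.

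The small subunit processome folds and cuts the first part of the ribosomal RNA precursor. Of its 15 members tested 4 rose in mean level and 1 fell, with a median difference of 0.40. Heatr1 and Wdr75 belong to the subcomplex that binds the precursor first. Heatr1 lay at 13.13 to 13.47 in WT and 13.70 to 13.96 in Lck-/-, Wdr75 at 11.57 to 11.70 in WT and 11.91 to 12.33 in Lck-/-, and they rose by 0.48 (SE 0.12, limma adjusted p = 0.0220) and 0.52 (SE 0.13, limma adjusted p = 0.0210). Nol6 lay at 10.41 to 10.78 in WT and 10.97 to 11.50 in Lck-/- and rose by 0.52 (SE 0.15, limma adjusted p = 0.0316). Rrp9, a protein of the U3 snoRNP, lay at 11.33 to 11.57 in WT and 11.73 to 12.22 in Lck-/- and rose by 0.51 (SE 0.14, limma adjusted p = 0.0307). In all 4 genes every Lck-/- extract lay above every WT extract. The call of Heatr1 was lost without Lck-/- replicate 3 or 4 or WT replicate 2 or 3 (adjusted p of up to 0.0611), that of Wdr75 without Lck-/- replicate 3 or 4 (adjusted p of up to 0.0679). Nol6 lost its call without Lck-/- replicate 2 or 4 or WT replicate 2, 3 or 4 (adjusted p of up to 0.0844), and Rrp9 without Lck-/- replicate 2 or WT replicate 1, 2 or 4 (adjusted p of up to 0.0854). Heatr1 and Nol6 rose in the sub-polysomal pool too, by 0.52 (SE 0.13, limma adjusted p = 0.0167) and 0.56 (SE 0.13, limma adjusted p = 0.0161), both lost with crossing (adjusted p = 0.0907 and 0.0575), and Heatr1 also without Lck-/- replicate 3 (adjusted p = 0.0523). Wdr75 had its lowest adjusted p in the sub-polysomal pool, where its level was 11.37, 11.53, 11.48 and 11.41 in WT extracts 1 to 4 and 12.02, 12.01, 12.14 and 12.21 in Lck-/- extracts 1 to 4. The 4 Lck-/- extracts were higher, by 0.64 (SE 0.12, limma adjusted p = 0.00523), and the call held with crossed dye swaps (adjusted p = 0.0234) and without any 1 extract.

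Nop14 ran the other way, although it works in the same particle. Its mean level was 9.01, 8.92, 9.20 and 9.09 in WT extracts 1 to 4 and 8.17, 8.67, 8.53 and 8.31 in Lck-/- extracts 1 to 4. Every Lck-/- extract was lower, by 0.63 (SE 0.14, limma adjusted p = 0.0108), and the fall was called with crossed dye swaps too (adjusted p = 0.0253). On polysomes Nop14 was at 9.36, 9.15, 9.65 and 9.46 in WT extracts 1 to 4 and 8.07, 8.91, 8.70 and 8.51 in Lck-/- extracts 1 to 4. That fall of 0.86 (SE 0.20, limma adjusted p = 0.0162), again without overlap, was lost when the dye swaps were crossed (adjusted p = 0.0787). It was also lost without WT replicate 3 (adjusted p = 0.0534). The sub-polysomal values were 8.66, 8.68, 8.74 and 8.72 in WT extracts 1 to 4 and 8.28, 8.44, 8.35 and 8.11 in Lck-/- extracts 1 to 4. The fall there was 0.41 (SE 0.12, limma adjusted p = 0.0374), with adjusted p = 0.0711 when crossed, and was lost without Lck-/- replicate 1, 3 or 4 or WT replicate 1, 2, 3 or 4 (adjusted p of up to 0.107). In mean level Nop14 was called in 19 of 22 alternatives (adjusted p of up to 0.105).

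Other members of the processome passed in 1 fraction only, and whether their fractions differ is the subject of the ratio below. The mean level of Utp14a was 10.22, 10.26, 10.36 and 10.00 in WT extracts 1 to 4 and 10.20, 10.62, 11.29 and 11.28 in Lck-/- extracts 1 to 4. Lck-/- extract 1 lay within the WT range and extracts 3 and 4 far above it, and the difference of 0.64 was not called (adjusted p = 0.0687). Sub-polysomal Utp14a was at 9.66, 9.79, 10.00 and 9.29 in WT extracts 1 to 4 and 10.23, 10.06, 10.76 and 10.90 in Lck-/- extracts 1 to 4. It rose there by 0.80 (SE 0.21, limma adjusted p = 0.0245), with no overlap, and lost its call when the dye swaps were crossed (adjusted p = 0.0561) and without Lck-/- replicate 3 or 4 or WT replicate 4 (adjusted p of up to 0.0793). The other Utp14a probe, above background on 12 arrays, gave -0.35 in that pool, and with both probes averaged the difference was 0.23 (limma adjusted p = 0.284). Utp20 and the helicase Ddx10 also rose in that pool, by 0.62 (SE 0.19, limma adjusted p = 0.0429) and 0.54 (SE 0.14, limma adjusted p = 0.0223), and with crossing Ddx10 kept its call (adjusted p = 0.0442) and Utp20 did not (adjusted p = 0.0877). The Utp20 call was also lost without Lck-/- replicate 1, 2 or 4 or WT replicate 2, 3 or 4 (adjusted p of up to 0.112), and that of Ddx10 without Lck-/- replicate 3 or 4 or WT replicate 2 (adjusted p of up to 0.0750). Imp3 rose in the polysomal pool, by 0.64 (SE 0.19, limma adjusted p = 0.0462), with 1 WT extract above the lowest Lck-/- extract, and was not called with crossing (adjusted p = 0.0830) or without Lck-/- replicate 2, 3 or 4 or WT replicate 1, 2 or 3 (adjusted p of up to 0.117). The differences in mean level of the uncalled Nol11, Wdr43, Noc4l, Imp3, Imp4, Bms1, Ddx10, Utp20 and Utp14a were all positive, from 0.24 (Nol11) to 0.64 (Utp14a). Utp15 and Utp18 were not tested in mean level. The Utp18 probe was well above background on 1 of 8 WT and 2 of 8 Lck-/- arrays in the polysomal channel, and Utp15, tested in the polysomal pool alone, differed by -0.32 (adjusted p = 0.172).

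For the Utp6 probe, sub-polysomal values were 16.89, 17.33, 17.09 and 17.00 in WT extracts 1 to 4 and 16.33, 15.97, 15.48 and 15.35 in Lck-/- extracts 1 to 4. The polysomal values were 13.53, 14.15, 13.32 and 14.27 in WT extracts 1 to 4 and 14.66, 14.95, 14.40 and 14.84 in Lck-/- extracts 1 to 4. The sub-polysomal level fell by 1.29 (SE 0.21, limma adjusted p = 0.00327) and the polysomal level rose by 0.89 (SE 0.23, limma adjusted p = 0.0248), both without overlap, the latter lost with crossing (adjusted p = 0.0509) and without Lck-/- replicate 2 or 4 or WT replicate 1 or 3 (adjusted p of up to 0.0720). The mean of both fractions differed by -0.20 (adjusted p = 0.434). As stated above, this probe shares bases with probes of 17 other gene names.

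Late factors of the small subunit accompany it from the nucleolus to the cytoplasm. Bysl lay at 11.97 to 12.26 in WT and 12.53 to 12.92 in Lck-/- in mean level. It rose by 0.56 (SE 0.13, limma adjusted p = 0.0158), and in the polysomal and sub-polysomal pools by 0.53 (SE 0.16, limma adjusted p = 0.0477) and 0.59 (SE 0.13, limma adjusted p = 0.0119). Its groups did not overlap in any of the 3, but the calls in the single pools were lost with crossing (adjusted p = 0.114 and 0.0576), and the polysomal call also on leaving out any 1 of the 8 extracts (adjusted p of up to 0.123). Its mean level was called in 22 of 23 alternatives (adjusted p of up to 0.0505). Ltv1 lay at 12.09 to 12.50 in WT and 12.67 to 12.84 in Lck-/-. It rose by 0.44 (SE 0.13, limma adjusted p = 0.0359) in mean level and by 0.55 (SE 0.14, limma adjusted p = 0.0203) in the sub-polysomal pool. The former was lost without Lck-/- replicate 2, 3 or 4 or WT replicate 1, 2 or 4 (adjusted p of up to 0.0972), and the latter without Lck-/- replicate 3 or 4 (adjusted p of up to 0.0584). Rrp12, a factor of subunit export, had a difference of 0.51 and Tsr1, Nob1, the endonuclease of the last cut, and Pno1 had 0.01, 0.01 and -0.13. None of these 4 passed the test (adjusted p from 0.116 to 0.978).

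The early and middle factors of the large subunit held 5 rises and 0 falls among 17 genes in mean level. At unadjusted p below 0.05 were 9 of 17, and 3325 of all 9073 genes tested. Nifk, a nucleolar RNA-binding partner of Ki-67, was at 13.77, 13.57, 13.28 and 13.34 in WT extracts 1 to 4 and 14.07, 14.30, 14.18 and 14.28 in Lck-/- extracts 1 to 4. The spot of WT extract 1 with polysomal RNA in Cy5 was left out as an outlier, so that extract rests on 1 array. All 4 Lck-/- extracts lay above all 4 WT extracts, with a rise of 0.72 (SE 0.14, limma adjusted p = 0.00617), 1.65-fold. On polysomes its level was 13.67, 13.78, 13.52 and 13.30 in WT extracts 1 to 4 and 14.23, 14.53, 14.33 and 14.47 in Lck-/- extracts 1 to 4. The groups were again apart, by 0.82 (SE 0.16, limma adjusted p = 0.00724), and both calls held with crossing (adjusted p = 0.00542 and 0.0272) and without any 1 extract. Sub-polysomal Nifk rose by 0.61 (SE 0.17, limma adjusted p = 0.0280), a call lost without Lck-/- replicate 3 or 4 or WT replicate 2, 3 or 4 (adjusted p of up to 0.0750). With crossed dye swaps the 3 differences were 0.74, 0.79 and 0.70. In mean level Nifk was called in 23 of 23 alternatives (adjusted p of up to 0.0237).

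Ebna1bp2, a nucleolar assembly factor, had a mean level of 14.43, 14.29, 14.44 and 14.09 in WT extracts 1 to 4 and 14.74, 14.66, 15.30 and 15.21 in Lck-/- extracts 1 to 4. It rose by 0.66 (SE 0.17, limma adjusted p = 0.0206), with no overlap, a call lost without Lck-/- replicate 3 or 4 or WT replicate 2 or 4 (adjusted p of up to 0.0649). Sub-polysomal values were 14.16, 14.00, 13.98 and 13.39 in WT extracts 1 to 4 and 14.71, 14.50, 15.24 and 15.37 in Lck-/- extracts 1 to 4. This rise of 1.07 (SE 0.22, limma adjusted p = 0.00894), 2.10-fold, was the largest of the members' brightest probes in that pool and was called with crossing (adjusted p = 0.0169) and without any 1 extract. A second probe with signal on all 16 arrays gave 0.17 there and -0.01 in mean level. With probes averaged the sub-polysomal call held, at 0.62 (limma adjusted p = 0.0241), and that in mean level did not, at 0.32 (limma adjusted p = 0.123). The polysomal difference was 0.26 (adjusted p = 0.322).

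Grwd1, a chaperone of a ribosomal protein of the large subunit, was at 11.48, 11.56, 11.43 and 11.63 in WT extracts 1 to 4 and 12.23, 12.32, 12.25 and 12.30 in Lck-/- extracts 1 to 4 on polysomes. The groups were apart by 0.75 (SE 0.13, limma adjusted p = 0.00550). The mean level, 11.54 to 11.70 in WT and 12.11 to 12.35 in Lck-/-, rose by 0.61 (SE 0.12, limma adjusted p = 0.00588), but another Grwd1 probe gave the opposite sign, and with the mean of both probes all 3 Grwd1 calls were lost. The sub-polysomal rise, 0.47 (SE 0.13, limma adjusted p = 0.0286), was also lost with crossing (adjusted p = 0.0720). So it was without Lck-/- replicate 2, 3 or 4 or WT replicate 1 or 3 (adjusted p of up to 0.0741). Nop2, a methyltransferase of ribosomal RNA, and Wdr12, of the complex with Bop1 and Pes1, rose in mean level by 0.48 (SE 0.14, limma adjusted p = 0.0376) and 0.38 (SE 0.11, limma adjusted p = 0.0371). Nop2 lay at 12.69 to 13.19 in WT and 13.23 to 13.52 in Lck-/-, and Wdr12 at 12.78 to 13.00 in WT and 13.21 to 13.35 in Lck-/-. Both also rose in the sub-polysomal pool, by 0.51 (SE 0.14, limma adjusted p = 0.0275) and 0.44 (SE 0.12, limma adjusted p = 0.0261), with adjusted p of 0.0446 and 0.0643 when crossed. The former was lost without Lck-/- replicate 3 or 4 or WT replicate 1, 2 or 4 (adjusted p of up to 0.0793), the latter without Lck-/- replicate 3 or 4 or WT replicate 2 (adjusted p of up to 0.0853). With crossing the Wdr12 call was lost (adjusted p = 0.0523), as it was without Lck-/- replicate 3 or 4 or WT replicate 1, 2 or 3 (adjusted p of up to 0.116) and with its probes averaged (0.34, limma adjusted p = 0.0503). Nop2 lost its call without Lck-/- replicate 3 or 4 or WT replicate 1, 2 or 4 (adjusted p of up to 0.103). The partners of Wdr12 did not pass: Bop1 differed by 0.08, and Pes1 was at 9.16, 9.28, 9.68 and 9.63 in WT extracts 1 to 4 and 8.98, 9.64, 9.21 and 8.96 in Lck-/- extracts 1 to 4, groups that overlap, with a difference of -0.24 (adjusted p = 0.368).

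Brix1, which binds the large subunit's precursor, rose in the sub-polysomal pool by 0.61 (SE 0.16, limma adjusted p = 0.0220), with no overlap between groups, and lost the call without Lck-/- replicate 3 or 4 or WT replicate 3 (adjusted p of up to 0.0770). The GTPase Gnl2 had the lowest difference of the 17 in mean level, from 11.32, 11.27, 11.63 and 10.90 in WT extracts 1 to 4 and 10.84, 10.77, 11.42 and 11.07 in Lck-/- extracts 1 to 4. Those groups overlap, and the difference of -0.26 was not called (adjusted p = 0.335). Its polysomal values were 11.63, 11.52, 12.04 and 11.24 in WT extracts 1 to 4 and 10.63, 11.03, 11.59 and 10.93 in Lck-/- extracts 1 to 4, with a difference of -0.56 (adjusted p = 0.112). The remaining genes of this role, Nop16, Rrp1b, Rrs1, Noc2l, Noc3l, Nip7, Ddx18 and Nol9, differed in mean level by -0.12 to 0.35, and none passed the test.

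Late in large subunit assembly, Mdn1, an ATPase of very large size, strips factors from the particle before export, and Nmd3 carries it out of the nucleus. The mean level of Mdn1 was 8.9997, 8.47, 8.33 and 8.51 in WT extracts 1 to 4 and 9.26, 9.28, 9.63 and 9.70 in Lck-/- extracts 1 to 4. Every Lck-/- extract was higher, and the means differed by 0.89. Mdn1 entered this test through Lck-/- alone, where its sub-polysomal signal was well above background on 8 of 8 arrays against 5 of 8 in WT. A difference was thus favoured by the filter, and these values are a description. A second probe gave -0.01, and the mean of both 0.44. On polysomes, where all 16 arrays had signal, its level was 9.57, 9.08, 9.13 and 9.497 in WT extracts 1 to 4 and 9.46, 10.50, 10.61 and 10.82 in Lck-/- extracts 1 to 4. Lck-/- extract 1 fell within the WT range there, and the rise of 1.03 (SE 0.27, limma adjusted p = 0.0270) was lost with crossing (adjusted p = 0.0509), with probes averaged (0.53, limma adjusted p = 0.201) and without Lck-/- replicate 2, 3 or 4 or WT replicate 2 or 3 (adjusted p of up to 0.0828). The sub-polysomal level was 8.43, 7.86, 7.53 and 7.52 in WT extracts 1 to 4 and 9.06, 8.06, 8.64 and 8.59 in Lck-/- extracts 1 to 4, groups that overlap, with a difference of 0.75, again a description.

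Nmd3 was at 9.20, 8.92, 8.999 and 8.93 in WT extracts 1 to 4 and 8.64, 8.70, 8.57 and 8.57 in Lck-/- extracts 1 to 4. All 4 Lck-/- extracts were lower and close together, and Nmd3 fell by 0.39 (SE 0.12, limma adjusted p = 0.0358), a call lost with crossing (adjusted p = 0.0709) and without Lck-/- replicate 3 or 4 or WT replicate 1, 2 or 3 (adjusted p of up to 0.0985). Its polysomal values were 9.28, 9.07, 9.26 and 9.05 in WT extracts 1 to 4 and 8.53, 8.74, 8.81 and 8.75 in Lck-/- extracts 1 to 4 and did not overlap, with a difference of -0.46 (adjusted p = 0.0521). The sub-polysomal values were 9.12, 8.77, 8.74 and 8.82 in WT extracts 1 to 4 and 8.75, 8.65, 8.33 and 8.39 in Lck-/- extracts 1 to 4, which overlap, with a difference of -0.33 (adjusted p = 0.125). Mrto4, which holds the place of a stalk protein on the immature particle, differed by 0.51 in mean level and was not called (adjusted p = 0.0585).

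The next question is how far these mRNAs sat on polysomes. The log2 ratio of polysomal to sub-polysomal intensity, set by loess to about 0 for the typical mRNA of each array, was tested against 0 within each genotype. In WT 26 of 51 members tested lay above 0 and 6 below (33.5% and 28.7% of 8263 genes tested), and in Lck-/- 17 lay above and 8 below (26.9% and 29.2%). The median of the members was 0.25 in WT and 0.16 in Lck-/-, against 0.04 and -0.03 over all genes. With crossed dye swaps 19 and 5 were called in WT, against 24.7% and 21.5% of all genes, and 12 and 7 in Lck-/-, against 17.7% and 18.1%, and the WT median was 0.27. Without normalization nearly all genes moved above 0 (medians of 1.34 in WT and 0.51 in Lck-/-), and 49 members lay above 0 and 1 below in WT, so position is relative to the typical mRNA. Single extracts ranged in that overall ratio from 1.04 to 1.73 in WT and from 0.21 to 0.78 in Lck-/-.

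By its brightest probe Ncl had the highest ratio in both genotypes, 2.09, 2.12, 2.48 and 2.26 in WT extracts 1 to 4 and 1.24, 2.26, 2.36 and 2.13 in Lck-/- extracts 1 to 4. All extracts lay above 1, and 7 of 8 above 2. The means were 2.24 in WT (SE 0.16, limma adjusted p = 2.22e-06) and 2.00 in Lck-/- (SE 0.16, limma adjusted p = 1.52e-05). A second Ncl probe, with signal on all 16 arrays, had means of 0.92 and 1.02, so this rank holds for the brightest probe. The GTPase Bms1 had 1.22, 1.00, 1.45 and 1.63 in WT extracts 1 to 4 and 0.32, 1.31, 1.36 and 1.39 in Lck-/- extracts 1 to 4, with Lck-/- extract 1 far below the other 7. For Rrp12 the ratio was 1.197, 0.76, 1.19 and 1.53 in WT extracts 1 to 4 and 0.83, 1.17, 1.34 and 1.50 in Lck-/- extracts 1 to 4, above 0 in every extract. The means of Bms1 and Rrp12 were 1.32 and 1.17 in WT (SE 0.17 and 0.13) and 1.09 and 1.21 in Lck-/- (SE 0.17 and 0.13).

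At the other end stood the probe of Utp6, then Nop56. By the brightest probe Nop56 ratios were -1.60, -1.41, -1.97 and -1.18 in WT extracts 1 to 4 and -1.18, -0.74, -0.80 and -1.44 in Lck-/- extracts 1 to 4, below 0 in all 8 extracts. Their means were -1.54 in WT (SE 0.14, limma adjusted p = 1.09e-05) and -1.04 in Lck-/- (SE 0.14, limma adjusted p = 0.000209). A probe that overlaps the brightest had means of -1.46 and -1.01. The third Nop56 probe, apart from these and with signal on all 16 arrays, was at -1.03, -1.15, -1.38 and -0.49 in WT and at -0.36, 0.23, 0.39 and 0.34 in Lck-/-, with means of -1.01 and 0.15. In Lck-/- the position of Nop56 thus depends on the probe. The ratios of Noc3l, an early large subunit factor, were -0.70, -0.79, -1.10 and -0.25 in WT extracts 1 to 4 and -0.51, -0.41, -0.51 and -0.57 in Lck-/- extracts 1 to 4. Those of Nop10 were -0.25, -0.15, -0.04 and -0.76 in WT extracts 1 to 4 and -0.38, -0.48, -0.66 and -0.74 in Lck-/- extracts 1 to 4. Both genes were negative in every extract. In WT the Noc3l mean was -0.71 and that of Nop10 -0.30. Levels of different probes are not compared here, since brightness differs between probes. The ratios set the same probe in both pools, but for some genes they too differed between probes. For the brightest Ebna1bp2 probe the means were 0.86 in WT and 0.04 in Lck-/-. Another, with signal on all 16 arrays, had 1.92 and 1.55. Npm1 probes ranged from -0.69 to 0.68 in WT and from -0.18 to 1.68 in Lck-/-. Those of Wdr12 were close in WT, at 0.32 and 0.35. The order of genes given here is thus that of their brightest probes.

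The difference in ratio between Lck-/- and WT was called for 2 of 51 members, 1 higher and 1 lower (1.96% each), against 2.81% of 8263 genes higher and 1.05% lower. These shares are near the background. Crossing gave 1 and 0, against 0.496% and 0% of all genes. At unadjusted p below 0.05 it gave 6 of 51 members and 750 of 8263 genes. The median difference was -0.08, against -0.04 over all genes, and 34 of 51 were negative. Scaling decided the rest: with median centring 1 was higher and 40 lower, without normalization 1 and 47, in the authors' deposited ratios 1 and 49, and in those ratios with each column centred 2 and 4. All genes moved with them: in the same order, 0.387%, 0.484%, 0.303% and 5.26% of them were higher and 56.3%, 71.9%, 90% and 3.42% lower. The median of all genes was -0.78, -0.78, -1.15 and 0.03 in these settings. On slide 1 alone and on slide 2 alone 1 was higher and 0 lower. Of all genes 184 were higher and 4 lower on slide 1, and 35 and 2 on slide 2.

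The call for a higher ratio was that of the Utp6 probe, with -3.35, -3.18, -3.76 and -2.73 in WT extracts 1 to 4 and -1.67, -1.03, -1.08 and -0.52 in Lck-/- extracts 1 to 4. The groups stood far apart, by 2.18 (SE 0.26, limma adjusted p = 0.00160), and the call held in all 24 alternatives run. Averaging probes, 1 of these, left the difference at 2.18, since the other Utp6 probe failed the filter on signal. The call for a lower ratio was that of Nop16, a nucleolar factor of the large subunit, with 0.92, 0.94, 1.16 and 0.91 in WT extracts 1 to 4 and 0.51, 0.21, 0.66 and 0.37 in Lck-/- extracts 1 to 4. Each Lck-/- extract was lower than each WT extract, by 0.54 (SE 0.13, limma adjusted p = 0.0477), but the call was lost when the dye swaps were crossed (adjusted p = 0.308) and on leaving out any 1 of the 8 extracts (adjusted p of up to 0.142). Nop16 levels did not pass in either pool. Its polysomal values were 11.78, 11.79, 12.15 and 11.90 in WT extracts 1 to 4 and 11.96, 11.46, 11.54 and 11.10 in Lck-/- extracts 1 to 4, with a difference of -0.39 (adjusted p = 0.184), and the sub-polysomal difference was 0.15 (adjusted p = 0.526).

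Among the other low differences, Ebna1bp2 had ratios of 0.54, 0.59, 0.93 and 1.38 in WT extracts 1 to 4 and 0.05, 0.32, 0.11 and -0.31 in Lck-/- extracts 1 to 4. All Lck-/- values lay below all WT values, by 0.82, without passing the test (SE 0.20, limma adjusted p = 0.0524). Ddx10 ratios were 0.50, 0.51, 0.61 and 0.25 in WT extracts 1 to 4 and -0.20, -0.06, 0.21 and 0.11 in Lck-/- extracts 1 to 4, also without overlap, with a difference of -0.46 (SE 0.13, limma adjusted p = 0.0934). For Gnl2 they were 0.61, 0.50, 0.83 and 0.67 in WT extracts 1 to 4 and -0.40, 0.51, 0.34 and -0.29 in Lck-/- extracts 1 to 4, where Lck-/- extract 2 reached the WT range, with a difference of -0.61 (SE 0.20, limma adjusted p = 0.132). Nop14 had 0.70, 0.47, 0.90 and 0.74 in WT extracts 1 to 4 and -0.20, 0.48, 0.35 and 0.39 in Lck-/- extracts 1 to 4, with overlap from Lck-/- extract 2, and a difference of -0.45 (SE 0.17, limma adjusted p = 0.174). With crossed dye swaps the adjusted p of these 4 lay between 0.301 and 0.695.

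Of the 17 positive differences, the largest after Utp6 were those of Nop56, Imp3, Nob1 and Grwd1, and none passed. Imp3, which joins the small subunit processome to its precursor RNA, had ratios of -0.01, 0.27, 0.02 and -0.03 in WT extracts 1 to 4 and 0.40, 0.84, 0.36 and 0.56 in Lck-/- extracts 1 to 4. Every Lck-/- value was above every WT value, by 0.48 (SE 0.14, limma adjusted p = 0.0911). The ratios of Nob1 were -0.15, 0.03, -0.04 and -0.52 in WT extracts 1 to 4 and 0.31, 0.01, 0.48 and 0.29 in Lck-/- extracts 1 to 4, with overlap at WT extract 2. Those of Grwd1 were -0.12, -0.29, -0.24 and -0.11 in WT extracts 1 to 4 and 0.25, -0.05, 0.09 and 0.06 in Lck-/- extracts 1 to 4, without overlap. Their differences were 0.44 (SE 0.15, limma adjusted p = 0.149) and 0.27 (SE 0.12, limma adjusted p = 0.216), and the difference of Nop56 was 0.50 (SE 0.20, limma adjusted p = 0.198). In all, 3 members had higher ratios in Lck-/- without overlap (5.72% of all genes did) and 8 had lower ones (8.81%).

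**Figure D4:**
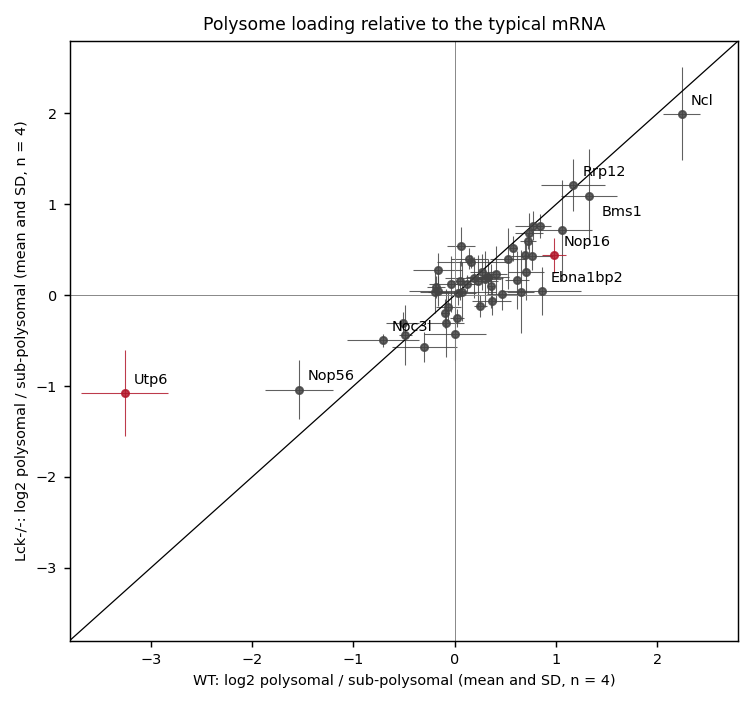
Log2 ratio of polysomal to sub-polysomal intensity in Lck-/- (vertical) against WT (horizontal) for 51 genes, as mean and SD (n = 4), where 0 is the typical mRNA and the diagonal marks equal ratios. Most genes lie near the diagonal between -1 and 1; the 2 called genes are red, Utp6 at -3.26 and -1.07 and Nop16 at 0.98 and 0.44.

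Genes with several probes allowed a check of the level. Of 14 members with at least 2 probes well above background on at least 12 arrays, 9 had the same sign of the difference in mean level on all their probes and 10 the same sign of the difference in ratio. The brightest Ebna1bp2 probe gave 0.66 and the next -0.01. For Mdn1 the values were 0.89 and -0.01, for Utp14a 0.64 and -0.39, and for Tsr1 0.006 and -0.0001. A second Grwd1 probe, well above background on 11 arrays, gave -0.64 where the brightest gave 0.61. The differences of the 5 Npm1 probes ranged from -0.54 to 0.53 in mean level, yet all 5 differences in ratio were positive, from 0.26 to 1.01. The 3 Nop56 probes also had ratio differences of 1 sign, at 0.45, 0.50 and 1.16. The probes of Wdr12, Brix1, Ddx18, Ddx21, Ncl, Nip7, Mrto4 and Wdr43 each gave positive differences in mean level on both. The probes of Ddx18, those of Tsr1, 2 of the Nop56 probes and 2 of the Npm1 probes overlap in position and so share most or part of their sequence. Which transcripts the disagreeing probes read was not tested.

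**Figure D5:**
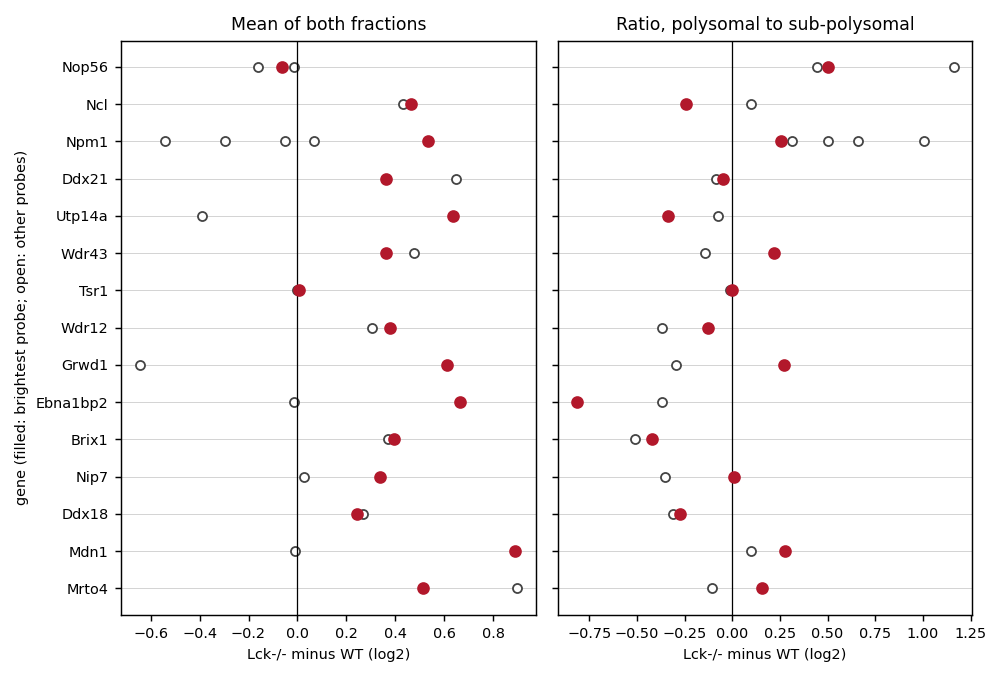
Difference between Lck-/- and WT (log2) in mean level (left) and in ratio (right) for each probe of the 15 genes with 2 or more probes whose signal passed background, in both channels, on 8 or more of 16 arrays; the filled point is the brightest probe. Npm1, Utp14a, Grwd1, Ebna1bp2 and Mdn1 have probes on both sides of 0 in the left panel, as does Tsr1, at 0.006 and -0.0001.

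Beside the members, 93 further ribosome biogenesis genes were read in the same fit. In mean level 24 of 88 tested (27.3%) rose and 6 (6.82%) fell, with a median of 0.26, beside the 9.34% and 11.3% of all genes. With crossed dye swaps 19 rose and 5 fell, where 8.08% and 10.2% of all genes did. Urb1, a factor of early large subunit assembly, was at 8.93, 8.96, 8.94 and 8.90 in WT extracts 1 to 4 and 9.65, 9.48, 9.67 and 9.82 in Lck-/- extracts 1 to 4. All 4 Lck-/- extracts were higher, by 0.72 (SE 0.12, limma adjusted p = 0.00295). Krr1, of the small subunit processome, was at 11.45, 11.45, 11.27 and 11.21 in WT extracts 1 to 4 and 11.87, 12.01, 12.07 and 12.17 in Lck-/- extracts 1 to 4, again without overlap, and rose by 0.69 (SE 0.12, limma adjusted p = 0.00474). Nop53, a late large subunit factor, fell by 1.07 (SE 0.19, limma adjusted p = 0.00423), from 9.15, 9.29, 9.89 and 9.69 in WT extracts 1 to 4 and 8.73, 8.35, 8.50 and 8.15 in Lck-/- extracts 1 to 4. These 3 had the smallest p of the list and kept their calls when the dye swaps were crossed (adjusted p = 0.00499, 0.00628 and 0.00535).

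In the polysomal pool 12 of 91 of these genes rose (13.2%) and 3 fell (3.30%), against 5.60% and 9.37% of all genes, and in the sub-polysomal pool 24 of 89 rose (27%) and 5 fell (5.62%), against 8.54% and 10.8%. Crossing left 4 rises and 2 falls on polysomes (4.40% and 2.20%, against 1.95% and 4.82% of all genes), and 17 and 3 in the sub-polysomal pool (19.1% and 3.37%, against 4.24% and 6.69%). The polysomal genes with the smallest p were Nop53, Znhit3 and Pwp2. Znhit3, an assembly factor of box C/D snoRNPs, was at 8.87, 8.85, 9.39 and 9.08 in WT extracts 1 to 4 and 8.21, 8.49, 8.20 and 8.09 in Lck-/- extracts 1 to 4, and fell by 0.80 (SE 0.17, limma adjusted p = 0.0114). Pwp2, of the processome, was at 12.56, 12.45, 12.04 and 12.31 in WT extracts 1 to 4 and 12.85, 13.43, 13.04 and 13.19 in Lck-/- extracts 1 to 4, and rose by 0.79 (SE 0.18, limma adjusted p = 0.0140). Neither gene's groups overlapped. Polysomal Nop53 fell by 1.10 (SE 0.18, limma adjusted p = 0.00349). In the sub-polysomal pool the smallest p belonged to Urb1 and Krr1, which rose by 0.89 (SE 0.12, limma adjusted p = 0.00198) and 0.80 (SE 0.13, limma adjusted p = 0.00322), and to Efl1, the GTPase that releases a factor from the finished large subunit, at 9.79, 9.70, 9.62 and 9.32 in WT extracts 1 to 4 and 10.41, 10.12, 10.45 and 10.42 in Lck-/- extracts 1 to 4. Efl1 rose by 0.74 (SE 0.14, limma adjusted p = 0.00673), without overlap.

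In the ratio 0 of 85 of these genes were called (limma), with 14 at unadjusted p below 0.05, and with crossing 0, with 3 at unadjusted p below 0.05. Of all 8263 genes tested, 1723 and, with crossing, 750 were at unadjusted p below 0.05. The smallest p belonged to Dcaf13, Esf1 and Urb1. Dcaf13, of the processome, had ratios of 1.22, 1.00, 1.10 and 1.22 in WT extracts 1 to 4 and 0.24, 0.84, 0.60 and 0.66 in Lck-/- extracts 1 to 4. Those of Esf1, a nucleolar assembly factor, were -0.72, -0.61, -0.44 and -0.49 in WT extracts 1 to 4 and -1.002, -0.84, -1.17 and -0.98 in Lck-/- extracts 1 to 4. For Urb1 they were 0.59, 0.52, 0.62 and 0.39 in WT extracts 1 to 4 and 0.18, 0.27, 0.12 and 0.21 in Lck-/- extracts 1 to 4. In all 3 every Lck-/- extract was lower. The differences were -0.55 (SE 0.14, limma adjusted p = 0.0597), -0.43 (SE 0.12, limma adjusted p = 0.0814) and -0.34 (SE 0.11, limma adjusted p = 0.128), and 29 of the 85 differences were positive and 56 negative. Within genotypes 37 lay above 0 and 12 below in WT, and 29 and 14 in Lck-/-, and with crossing 31 and 8 in WT and 22 and 9 in Lck-/-. Of all genes 33.5% lay above 0 and 28.7% below in WT, and 26.9% and 29.2% in Lck-/-. With crossing these shares were 24.7% and 21.5% in WT and 17.7% and 18.1% in Lck-/-.

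Since many members rose together, their promoters were searched for CACGTG, the E-box that Myc and related factors bind, which reads the same on both strands. RefSeq windows of 300 bases (build GRCm38.p6, 250 before to 50 after the start) were matched for 46 members. The motif was in 13 of their 51 windows (25.5%), against 7.15% of all 32851 windows, and in 13 of 46 members (28.3%) against 8.09% of 27025 genes. It was present in 4 of the 11 matched members that rose in mean level and in 1 of the 3 that fell. The 150 bases before the start are shown for Nop2, which rose, and Nmd3, which fell, with the motif in capitals. It starts 60 bases before the start in Nop2 and 114 in Nmd3. A match is a run of letters, and binding was not measured.
Nop2 (chr6:125131733-125131882, plus strand): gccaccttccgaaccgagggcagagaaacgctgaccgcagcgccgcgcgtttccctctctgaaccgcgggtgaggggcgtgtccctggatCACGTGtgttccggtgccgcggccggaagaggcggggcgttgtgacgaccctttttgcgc
Nmd3 (chr3:69721905-69722054, plus strand): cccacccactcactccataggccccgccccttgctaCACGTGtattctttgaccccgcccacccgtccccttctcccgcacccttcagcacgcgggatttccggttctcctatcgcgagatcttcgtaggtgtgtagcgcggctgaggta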

How the data were processed

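Polysomal and sub-polysomal RNA of 8 extracts was measured on 16 Agilent 2-colour arrays, 2 per extract with dyes swapped. The deposited scanner files hold the intensity of 62976 spots in each channel, from Agilent Feature Extraction 10.7.3.1, per the file headers, with probes placed on mm9. The authors also deposited 1 log2 ratio per probe and array, made with limma per the submitters' processing notes, which served as an alternative. Intensities were background-corrected here (normexp, offset 50), normalized by loess within arrays and, for levels, by Aquantile between arrays (limma 3.58.1, R 4.3.3). Control spots were left out and spots of a probe averaged.

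Array probes were named through RefSeq tables: 31381 of 55681 had a gene. Each gene's brightest probe was used where at least 6 of 8 arrays per genotype were well above background (both genotypes for ratios, 1 for levels). Both arrays of an extract were averaged, and extracts were compared with lmFit and eBayes, with p-values adjusted by Benjamini-Hochberg over all genes at 0.05. Arrays give no read depth, and the number of extracts limits precision. The code was tested on simulated data.

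The members and lists were chosen with earlier results of these data known. Genes printed with values per extract are the 5 largest rises and 5 largest falls in each comparison, the 3 highest and 3 lowest ratios in each genotype, and 3 of the other biogenesis genes per comparison by p-value; further called genes are given by their differences. Alternatives covered normalization, filter, probe choice, dye, slide, crossed dye swaps, a replicate block and leaving out each extract.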

Additional observations from a re-analysis of the deposited data

Results flagged for a closer look

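In 2 of 90 groups of 4 extracts examined, 1 extract stood apart from the others by Dixon's gap criterion, which chance does in about 1 in 20 groups. Bms1, the GTPase of the small subunit processome, had a log2 ratio of polysomal to sub-polysomal RNA of 0.32 in Lck-/- replicate 1, where the nearest of the other 3 was 1.31. Nop16, a large subunit factor, had a ratio of 1.16 in WT replicate 3, where the nearest was 0.94.

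The share on polysomes differed between the genotypes, by limma's test of the difference, for 2 genes. The Utp6 probe had a ratio 2.18 higher in Lck-/- than in WT on the log2 scale, and shares a stretch of bases with probes of 17 other gene names. For Nop16 the difference in log2 ratio was -0.54. That call was lost with crossed dye swaps (limma adjusted p = 0.308) and in all 8 fits without 1 extract, and held in 7 of 24 alternatives.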

How the results depend on the processing

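Of the 44 calls of single members, 26 held with crossed dye swaps and 15 without WT replicates 1 and 2, and Grwd1, with its probes averaged, had differences of -0.0165 in mean level, -0.0220 on polysomes and -0.0110 in the sub-polysomal pool, turned from positive. Averaging probes also ended the calls of Ebna1bp2 (0.32, limma adjusted p = 0.123), Mdn1 (0.44, 0.0566) and Wdr12 (0.34, 0.0503) in mean level, of Mdn1 on polysomes (0.53, 0.201) and of Utp14a in the sub-polysomal pool (0.23, 0.284). The members called in ratio, 2 as reported, were 1 with Agilent's processed signals, no filter on dim probes, either dye orientation, either slide, crossed dye swaps or WT replicates 1 and 2 left out, 4 with 16 arrays with slide and dye terms, 41 with median centring, 48 with no normalization, 50 with the authors' deposited ratios and 6 with those centred. In mean level the 16 became 6 without scaling between arrays, 6 in Cy5 only, 7 in Cy3 only, 7 on either slide and 6 without WT replicates 1 and 2. On polysomes the 8 became 4 with Agilent's signals, 5 with no filter, 0 in Cy5 only (limma; 10 at unadjusted p below 0.05), 3 in Cy3 only, 0 on slide 1 (9 at unadjusted p below 0.05), 2 with crossed dye swaps and 1 without WT replicates 1 and 2, and turned to falls with median centring (7) and no normalization (11). In the sub-polysomal pool the 18 became 38 with median centring, 42 with no normalization, 5 without scaling between arrays, 6 in Cy5 only, 4 in Cy3 only, 0 on slide 2 (18 at unadjusted p below 0.05), 9 with crossed dye swaps and 10 without WT replicates 1 and 2. The 32 ratios called against 0 in WT became 49 with median centring, 50 with no normalization or the authors' ratios and 21 without WT replicates 1 and 2, and the 25 in Lck-/- became 39 with no normalization, 16 in Cy3 only and 15 on slide 1. Leaving out 1 extract gave 1 to 3 calls in ratio, 7 to 19 in mean level, 2 to 13 on polysomes, 8 to 19 in the sub-polysomal pool, 27 to 34 against 0 in WT and 21 to 30 in Lck-/-. The replicate numbers were not taken as pairs, since not every correlation between deviations of same-numbered extracts exceeded 0.1 (-0.29 to 0.48 over the 4 measures); with the replicate block 1 member was called in ratio, 12 in mean level, 6 on polysomes and 12 in the sub-polysomal pool. Calls over all genes moved too. In mean level 847 rises and 1028 falls became 313 and 670 without scaling, and 287 and 530 without WT replicates 1 and 2. On polysomes 576 and 964 became 28 and 136 in Cy5 only, and 19 and 72 on slide 1. In the sub-polysomal pool 829 and 1044 became 287 and 637 without scaling, and 42 and 135 on slide 2. At unadjusted p below 0.05 were 2031 genes on polysomes in Cy5 only. For these changes the cause was not tested.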
